A study of Homo sapiens with 12 samples.

Results

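COLO320DM, a human colon cancer cell line, was transfected with a pCMV6 plasmid that expresses the hexokinase HKDC1, and its messenger RNA was compared with that of the same line given the empty pCMV6-Entry plasmid. The comparison takes 6 of the 12 RNA-sequencing libraries of the study, the 3 COLO320DM libraries labelled pCMV6-HKDC1 and the 3 labelled pCMV6-Entry, and all genes were examined. The other 6 libraries hold SW480, a second colon cancer line, treated alike, and enter only where the lines are set side by side. All cells were grown in RPMI-1640 with fetal bovine serum and received 10 µg of plasmid with Lipofectamine 2000 for 24 h, after which standard medium was restored, so the controls carry the transfection and the vector backbone as well. The transfection was transient, expression was driven from a plasmid rather than from the gene's own locus, and no untransfected cells are among the groups. Nothing in the labels says that the numbered replicates were grown or transfected separately. Each p-value therefore speaks only of the spread among these libraries, which may be technical.

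Hexokinases add a phosphate to glucose as it enters the cell, which traps it for glycolysis, the pentose phosphate pathway and the hexosamine pathway. HKDC1 is the most recently described member of the family in humans, resembles HK1 and HK2 in having a tandem pair of hexokinase domains, and can bind to the outer mitochondrial membrane through the channel protein VDAC. It is low or absent in most normal adult tissue and is raised in several carcinomas.

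Library totals ran from 40238322 to 41594070 counts with the empty vector and from 33790733 to 40733725 with the HKDC1 plasmid. Replicate 1 stood apart from replicates 2 and 3 in both groups, and principal component 1 (34.3% of the variance) separated it from them, whereas component 2 (21.8%) separated the plasmids. Results are therefore given both without the replicate number and with it as a block, which compares each HKDC1 library with the empty-vector library of the same number. That replicates 2 and 3 are matched by number between the plasmids is an assumption, which the libraries did not show. Of 12 colorectal epithelium markers, 11 had enough counts to be tested, and their summed level was 1648 to 1843 CPM (counts scaled to 1000000 per library) with the empty vector and 1784 to 1818 with HKDC1. CDX2, an intestinal transcription factor, led them at 1451 ± 68.2 CPM and 1500 ± 48.3 CPM (SD, n = 3 each), so most of the sum came from this 1 gene. KRT8, an epithelial keratin, stood at 135.9 ± 20.8 and 145.2 ± 11 CPM. Neuroendocrine markers summed to 4.0 to 7.50 CPM and 3.49 to 7.31 CPM, with SYP and CHGB, proteins of secretory vesicles, as the most abundant. Fibroblast markers summed to 41.7 to 66.7 and 47.0 to 66.9 CPM, and immune and endothelial markers to 41.0 to 44.2 and 32.6 to 42.2 CPM. The ranges of the 2 groups overlapped for each of the 4 marker lists, and 1 colorectal and 1 neuroendocrine marker had 0 counts in all 6 libraries. In bulk RNA, fewer cells of a type and less RNA per cell cannot be told apart.

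HKDC1 itself was all but absent from COLO320DM and became one of its most abundant messages. The empty-vector libraries held 0, 1 and 1 HKDC1 counts, and the HKDC1 libraries held 269799, 327905 and 333102 counts, in the order of their replicate numbers. No library lay between the groups, and among the transfected libraries replicate 1 was the lowest. As a share of each library's total, HKDC1 rose from 0.0163 ± 0.0141 CPM to 8635 ± 1756 CPM (SD, n = 3 each). The ratio of the summed counts over the summed library totals was 522960, and with 2 counts in the denominator its exact 95% Poisson interval, which covers counting error only, ran from 144770 to 4318250. edgeR's quasi-likelihood test gave a Benjamini-Hochberg adjusted p of 1.08e-12 without the block and 6.90e-47 with it, whereas an exact two-sided permutation test on 3 against 3 libraries gave 0.1, the smallest p that this design allows.

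The level reached can be read against other genes once counts are divided by length. Per kilobase of the deposited exon length, 4223 bases for HKDC1, it stood at 1568, 2232 and 2334 CPM per kilobase in the 3 transfected libraries. GAPDH, a glycolytic enzyme, lay between 934 and 963 in the same libraries, and EEF1A1, the translation elongation factor, between 1596 and 1831. HKDC1 thus passed GAPDH in all 3 libraries and EEF1A1 in 2 of them, and ranked 33rd, 24th and 23rd of all genes by this measure. It took 0.662%, 0.942% and 0.986% of all counts. The annotated coding sequence is 2751 bases, shorter than the length used, so the level per base of a message without untranslated ends would be higher.

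**Figure D1:**
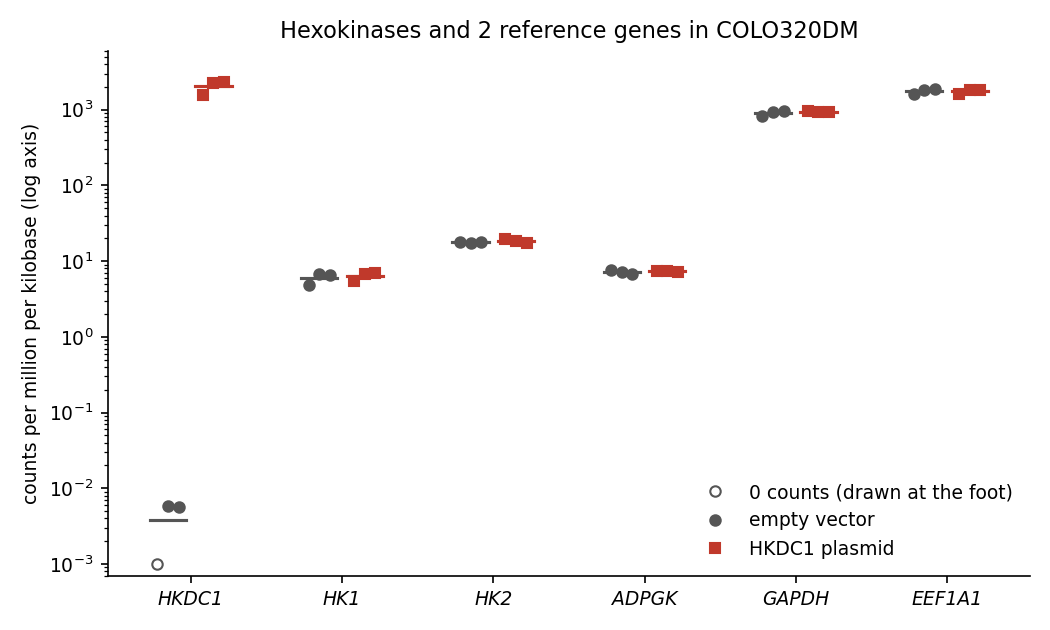
Level of HKDC1, of 3 other enzymes that phosphorylate glucose and of 2 abundant reference genes in each COLO320DM library, in CPM per kilobase on a log axis. Grey circles are the 3 empty-vector libraries, red squares the 3 HKDC1 libraries and bars their means, and the open circle marks the library with 0 HKDC1 counts: HKDC1 moves from at most 0.00588 to between 1568 and 2334, while the groups overlap for each of the other 5 genes.

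The second gene to pass the test was AL596223.2 (ENSG00000231748, chr10:69265342-69268148, minus strand), an antisense gene that runs across the 3′ end of HKDC1 (ENSG00000156510, chr10:69220332-69267552, plus strand). Its counts were 0, 0 and 0 with the empty vector and 34871, 40743 and 42697 with HKDC1, at least 44314-fold higher against a floor of 3 counts over the control group (adjusted p = 1.32e-42 with the block, edgeR). Its count was a nearly fixed share of the HKDC1 count, 12.9%, 12.4% and 12.8% in the 3 libraries. The exons of the 2 genes overlap over 143 bases, chr10:69265585-69265727, which lie in exon 17 of the 18 HKDC1 exons, are all coding, and make up 5.20% of the HKDC1 coding sequence and 32.9% of the exon bases of AL596223.2. Exon 17 is printed here because those bases are the stretch of the transfected coding sequence that both genes can claim, and they are in capitals (GENCODE 29 on GRCh38, chr10:69265585-69265818, plus strand).
HKDC1 exon 17: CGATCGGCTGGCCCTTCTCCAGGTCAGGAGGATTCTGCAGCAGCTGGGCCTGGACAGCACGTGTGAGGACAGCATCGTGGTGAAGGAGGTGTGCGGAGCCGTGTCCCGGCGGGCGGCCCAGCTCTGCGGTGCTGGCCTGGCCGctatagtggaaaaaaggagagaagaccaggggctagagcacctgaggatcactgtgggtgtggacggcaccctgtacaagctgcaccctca
The strand setting of the counting is not given in the sources used here, and reads from the 2 strands cannot be told apart without it, so the 2 increases are not separate measurements. HK1, the next gene along the chromosome, had 1243, 1694 and 1728 counts with the empty vector and 1413, 1466 and 1499 with HKDC1, and its groups overlapped.

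None of the other hexokinases described here passed the test. HK2, the inducible hexokinase of many tumours and the leading one in this line, stood at 103.3 ± 2.70 and 110.2 ± 8.95 CPM, and the difference of 0.09 (log2, SE 0.06 with the block) had an adjusted p of 0.946 (edgeR). HK1, the hexokinase of most adult tissues, stood at 36.6 ± 6.29 and 39.6 ± 4.62 CPM, and ADPGK, which uses ADP in place of ATP, at 41.2 ± 2.55 and 42.6 ± 1.34 CPM. These values show levels that overlapped between the plasmids for each of the 3 genes. HK3, a hexokinase of blood cells, had 0 to 2 counts in a library and could not be tested. In the transfected libraries, HKDC1 made up 97.9%, 98.6% and 98.7% of the summed per-kilobase level of the hexokinase list.

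Downstream of the hexokinase step, no gene of glycolysis or glucose transport passed the test among 24 tested. Of these, 19 had a log2 fold change above 0 and the median was 0.08. Over all 23684 genes tested, 47.3% were above 0 (49.6% of those with a mean of 10 CPM or more) and the median was −0.00083. The pairs differed, since the median log2 ratio of the list was 0.19 in pair 1, 0.05 in pair 2 and −0.02 in pair 3. GAPDH showed the same unevenness, with ratios of 0.25, 0.01 and −0.02, and LDHB, a lactate dehydrogenase subunit, had 0.0145, 0.0481 and −0.0158. The list of mitochondrial anchor and mitophagy genes, 3 of them outer membrane channels, 2 import receptors and 8 mitophagy genes, gave no called gene among 13 tested, with 7 above 0 and a median of 0.0033, whose sign turned under several alternatives. VDAC1, the outer-membrane channel to which hexokinases dock, stood at 254.5 ± 22.3 and 271.0 ± 22.8 CPM, and TOMM20, an import receptor of the same membrane, at 372.4 ± 7.74 and 373.3 ± 7.95 CPM.

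Across all genes, the response beyond the transfected locus was small. Without the block, edgeR called 2 of 23684 genes, HKDC1 and AL596223.2, at an adjusted p under 0.05 (0.00844% of those tested), and none lower. An unadjusted p under 0.05 was reached by 312 genes (1.32%), 115 of them higher (0.486%) and 197 lower (0.832%). With the block, 18 genes passed (0.076%), 4 higher (0.0169%) and 14 lower (0.0591%), and 1292 (5.46%) had an unadjusted p under 0.05, 2.34% higher and 3.11% lower. Among genes with a mean of 10 CPM or more, the unadjusted share was 5.91%, and 3.6% lay higher and 4.49% lower in every HKDC1 library. The 16 genes beyond the transfected locus had block log2 fold changes between 0.30 and 1.07 in size, with a median of 0.38, and an adjusted p of 1.00 each without the block. In 14 of the 16, every HKDC1 library lay on the same side of every empty-vector library, a separation that 7.74% of all genes tested showed. The 16 were selected by a test on these same libraries, so their separation is no separate support. The 18 genes occupy 15 separate spans of the genome, since HKDC1 overlaps AL596223.2, GH1 overlaps AC127029.3 and MRPS31P5 overlaps AL158066.1. The count leaned on single pairs: without replicate 1 it was 9, of which 6 were among the 18, without replicate 2 it was 18, of which 9 were among them, and without replicate 3 it was 7, of which 6 were among them. DESeq2 with the block called 13 genes, 12 of them among the 18, and limma-voom called 4, all among the 18.

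**Figure D2:**
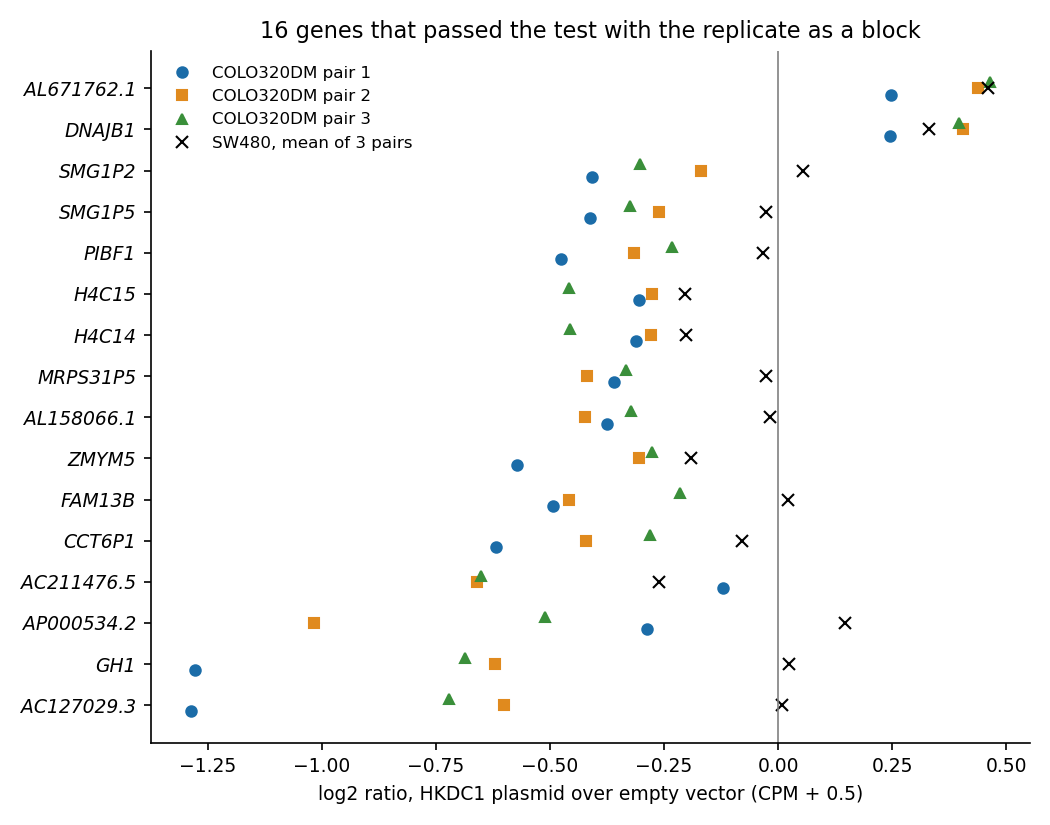
Log2 ratio of the HKDC1 library to the empty-vector library of the same replicate number, on CPM plus 0.5, for the 16 genes besides HKDC1 and AL596223.2 that passed the test with the replicate block. Blue circles, orange squares and green triangles are COLO320DM pairs 1, 2 and 3 and crosses are the mean of the 3 SW480 pairs: all 3 pairs share a sign for every gene, and only AL671762.1 and DNAJB1 lie above 0. The genes were selected on these same COLO320DM pairs, which favours a shared sign.

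On the higher side stood DNAJB1, a heat shock gene, and a transcript that overlaps another. The heat shock response is run by the transcription factor HSF1, which binds heat shock elements in the promoters of chaperone genes when unfolded protein accumulates. Chaperones of the HSP70 family hold and refold client proteins, and HSP40 family members such as DNAJB1 deliver clients to them and drive their ATP cycle. DNAJB1 had 2501, 2337 and 2363 counts with the empty vector and 2866, 2641 and 2494 with HKDC1, from libraries that were in part smaller. In CPM it went from 56.4 ± 2.22 to 72.0 ± 2.02 (SD, n = 3 each), 27.6% higher, with no overlap between the groups. With the block it rose by 0.35 (log2, SE 0.06, edgeR adjusted p = 0.00688), and it was higher in 3 of 3 pairs. Its adjusted p was 0.0139 without replicate 1, 0.114 without replicate 2 and 0.156 without replicate 3, and 0.0766 with limma-voom.

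The other called gene on this side, AL671762.1 (chr6:31828834-31839719, plus strand), is a processed transcript whose span begins inside HSPA1B, which encodes an inducible HSP70. It had 7259, 6897 and 7247 counts against 8331, 7965 and 8000, a rise of 0.38 (SE 0.07, edgeR with the block, adjusted p = 0.00688). The call was lost with limma-voom (0.0718) and without replicate 3 (0.190). Because the 2 spans share bases on the same strand, reads of HSPA1B may have been assigned to either gene. Of the genes named in this and the next paragraph, HSPA1A, HSPA1B, HSPA6, HSPA8 and HSPH1 were chosen after their values were seen.

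HSPA1A and HSPA1B, near-identical neighbouring copies of inducible HSP70 whose reads can be confused, showed larger ratios than either called gene. HSPA1A had 6008, 4663 and 4635 counts with the empty vector and 8818, 7390 and 7871 with HKDC1, or 120.0 ± 18.8 and 216.6 ± 10.5 CPM. HSPA1B had 7941, 5955 and 5988 against 11251, 9624 and 10020 counts, or 155.9 ± 27.1 and 277.9 ± 10.7 CPM. The groups did not overlap for either gene. Neither passed the test fitted over the 12 libraries, where HSPA1A had a log2 fold change of 0.86 (SE 0.37, adjusted p = 0.945 with the block, edgeR). When the 6 COLO320DM libraries were fitted alone with the block, both passed, with an adjusted p of 6.04e-05 for HSPA1A and 0.00628 for HSPA1B, and 18 genes were called, 16 of them among the 18 above. HSPA6, a strictly inducible HSP70 at very low level, had 29, 57 and 44 counts against 73, 60 and 77 (log2 fold change 0.91, SE 0.22, adjusted p = 0.164 with the block), and it passed with the block and no count filter (0.00951). HSPA8, the constitutive HSP70, and HSPH1, an exchange factor for HSP70, had overlapping groups, although both had a ratio above 0 in all 3 pairs.

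**Figure D3:**
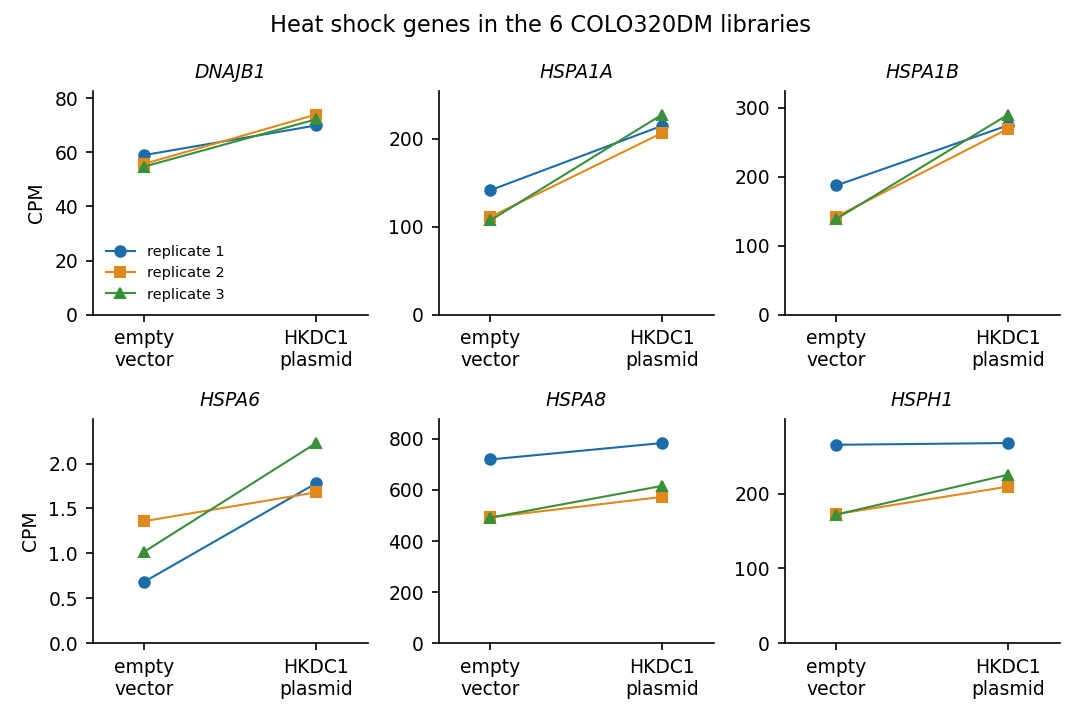
CPM of 6 heat shock genes in the 6 COLO320DM libraries, empty vector on the left and HKDC1 plasmid on the right of each panel, with a line joining libraries of the same replicate number and each axis starting at 0. DNAJB1, HSPA1A, HSPA1B and HSPA6 lie higher in every HKDC1 library than in any empty-vector library, while HSPA8 and HSPH1 are highest in replicate 1 with both plasmids.

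Over the 23 heat shock genes tested, DNAJB1 was the only one called in the fit over the 12 libraries with the count filter, 19 were above 0 and the median log2 fold change was 0.07. The 8 HSP70 family members had a median of 0.21 with 7 above 0, the 4 HSP40 members 0.07, and the HSP90 pair, HSP90AA1 and HSP90AB1, 0.11 and 0.07. HSP90AB1 had ratios of 0.06, 0.08 and 0.07 in the 3 pairs, and HSP90AA1 0.04, 0.13 and 0.20. In 4 genes every HKDC1 library lay above every empty-vector library (3.52% of all genes did so) and in 1 below (4.22%). Chaperones of the endoplasmic reticulum, which answer to another sensor system, had no called gene. Of 22 genes of endoplasmic reticulum stress, 14 were above 0 with a median of 0.04, and HSP90B1 and CANX, the most abundant, had log2 fold changes of 0.04 and 0.04.

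The promoters of DNAJB1, HSPA1A and HSPA6 are shown because these are among the genes of the heat shock response whose groups did not overlap. HSPA1B, the near-identical copy of HSPA1A, met the same rule and had 1 match in its promoter, but is not printed. Capitals mark each match to GAANNTTC or TTCNNGAA, the paired units of a heat shock element. Each stretch is the 250 bases before a RefSeq transcript start (GRCh38.p14), written in the direction of transcription. DNAJB1 has 3 such starts in the table, and the start printed is the only one with a match.
DNAJB1, chr19:14518398-14518647, minus strand: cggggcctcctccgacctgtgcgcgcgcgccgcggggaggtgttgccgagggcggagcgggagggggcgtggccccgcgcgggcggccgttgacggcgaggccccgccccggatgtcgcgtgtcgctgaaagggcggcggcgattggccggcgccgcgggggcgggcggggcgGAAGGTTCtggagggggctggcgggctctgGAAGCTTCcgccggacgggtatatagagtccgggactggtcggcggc
HSPA1A, chr6:31815293-31815542, plus strand: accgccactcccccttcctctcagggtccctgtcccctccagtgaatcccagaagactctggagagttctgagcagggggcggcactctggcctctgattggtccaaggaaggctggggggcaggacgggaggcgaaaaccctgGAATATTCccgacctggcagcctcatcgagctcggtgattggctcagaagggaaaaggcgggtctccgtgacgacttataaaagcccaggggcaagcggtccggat
HSPA6, chr1:161524290-161524539, plus strand: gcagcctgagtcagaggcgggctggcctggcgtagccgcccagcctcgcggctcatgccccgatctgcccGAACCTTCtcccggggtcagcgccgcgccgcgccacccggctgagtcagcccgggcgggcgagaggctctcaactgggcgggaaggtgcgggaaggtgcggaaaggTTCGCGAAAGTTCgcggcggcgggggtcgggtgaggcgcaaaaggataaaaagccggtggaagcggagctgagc
DNAJB1 held 2 matches, at 77 to 70 and 47 to 40 bases before the start, HSPA1A held 1, at 106 to 99, and HSPA6 held 3, of which the TTCNNGAA at 74 to 67 and the GAANNTTC at 69 to 62 overlap into a run of 3 units. Each motif is its own reverse complement, so the search covers both strands, and matches may overlap. Of 35116 promoters in the table, 4067 (11.6%) held either motif and 155 (0.441%) held a run of 3 units. The 22 heat shock genes with a promoter in the table had 32 promoters, and a gene was counted if any of its promoters matched. Counted so, 13 of the 22 held either motif and 7 held the run of 3. Of the 6 called genes with a promoter, 1 held either motif, DNAJB1. The shares above are per promoter, so the counts of genes cannot be set directly against them. A match is a description of the letters, not a measured binding site.

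The lower genes were of several kinds. The protein-coding gene with the most counts was PIBF1 (chr13:72782133-73016461, plus strand), a component of centriolar satellites that is needed for primary cilia. It had 7117, 6696 and 6806 counts with the empty vector and 4941, 4576 and 4633 with HKDC1, or 161.6 ± 5.4 and 127.6 ± 6.80 CPM. Every HKDC1 library lay below every empty-vector library. With the block PIBF1 fell by 0.34 (log2, SE 0.06, edgeR adjusted p = 0.00688), and it passed with DESeq2 (0.00181) and limma-voom (0.0479) as well. Without replicate 1 its adjusted p was 0.331.

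ZMYM5, a zinc finger protein, had 1888, 1721 and 1765 counts against 1221, 1182 and 1162, and fell by 0.39 (SE 0.08, adjusted p = 0.0257 with the block, edgeR). FAM13B had 1057, 881 and 857 against 720, 541 and 588, and fell by 0.40 (SE 0.08, adjusted p = 0.0257). Neither pair of groups overlapped. The adjusted p of ZMYM5 was 0.858 without replicate 1, 0.102 without replicate 3, 0.0954 with DESeq2 and 0.181 with limma-voom. That of FAM13B was 0.594 without replicate 1, 0.307 without replicate 2 and 0.121 with limma-voom.

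Chromosome 13 was looked at after these values were seen. PIBF1 and ZMYM5 lie on it with MRPS31P5 and AL158066.1, so it holds 4 of the 18 called genes, against 467 of the 23684 tested (1.97%). MRPS31P5 and AL158066.1 overlap and are not separate signals, and the 18 genes occupy only 15 spans. On that chromosome, 42 tested genes (8.99%) lay lower in every HKDC1 library and 14 (3.0%) higher, against 4.22% and 3.52% of all genes, and the median log2 fold change was −0.03. Neighbours of the called genes, chosen after their values were seen, had smaller differences. DIS3, an exosome nuclease, and BORA, a mitotic kinase activator, lie beside PIBF1 and had block log2 fold changes of −0.09 and −0.08, and MZT1, a γ-tubulin ring protein, had −0.0035. Beside ZMYM5, its relative ZMYM2 had −0.10, PSPC1, a paraspeckle protein, −0.14 and MPHOSPH8, a chromatin silencer, 0.01. The groups overlapped for each of these 6 genes.

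PIBF1 was the only called gene among 21 centrosome and centriolar satellite genes. Of these, 17 had a log2 fold change below 0 and the median was −0.08, which turned above 0 without replicate 1 of the empty vector or without pair 1 (0.0433 at the highest). In 3 genes every HKDC1 library lay lower, as in 4.22% of all genes tested. The list's median ratio was −0.20 in pair 1, −0.10 in pair 2 and 0.05 in pair 3, so the list did not share a direction across pairs, whereas PIBF1 had −0.48, −0.32 and −0.23. CCDC14, the most abundant other member, stood at 106.5 ± 11.1 and 107.0 ± 1.58 CPM.

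The largest ratio among the lower genes was that of GH1, pituitary growth hormone, and of AC127029.3, which covers the same stretch of chromosome 17 (chr17:63917203-63931385, minus strand) and counted nearly the same reads. GH1 had 123, 107 and 148 counts with the empty vector and 37, 53 and 67 with HKDC1, or 2.96 ± 0.44 and 1.44 ± 0.52 CPM. Every HKDC1 library was below every empty-vector library, at a level of few counts. With the block GH1 fell by 1.06 (log2, SE 0.19, edgeR adjusted p = 0.00688), and its adjusted p was 0.530 without replicate 1 and 0.185 with limma-voom. DESeq2 with the block gave no adjusted p for GH1 or AC127029.3, so it called neither. The other genes of the growth hormone cluster were too low to test: GH2, placental growth hormone, had 6, 3 and 9 counts against 1, 1 and 2, the placental lactogens CSH1 and CSH2 had at most 2 in a library, and CSHL1 had none. Because the genes of this cluster are close copies, reads can be shared among them. The pCMV6 vectors carry the polyadenylation signal of the growth hormone gene after the insert, and reads from a plasmid cannot be told apart here from reads of the chromosome.

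Of the 18 called genes, 5 were pseudogenes, all lower, against 7.96% of the genes tested. SMG1P5 and SMG1P2 are duplicated fragments on chromosome 16 of SMG1, the kinase that starts nonsense-mediated decay. SMG1P5 had 3348, 2949 and 3096 counts against 2425, 2093 and 1973, and SMG1P2 had 4168, 3625 and 3858 against 3033, 2743 and 2497. Both separated the groups, and with the block they fell by 0.34 (SE 0.06, edgeR adjusted p = 0.00882) and 0.30 (SE 0.06, adjusted p = 0.0257). SMG1P5 was not called without replicate 1 (0.249) or replicate 3 (0.156), and SMG1P2 was not called without replicate 1 (0.630), without replicate 3 (0.336) or with limma-voom (0.0824). All 7 SMG1 pseudogenes, the 2 called ones included, were tested, and all were below 0 with a median of −0.23. In 4 of the 7, every HKDC1 library lay lower, against 4.22% of all genes tested. SMG1P1, SMG1P3, SMG1P4, SMG1P6 and SMG1P7, which were not called, had block log2 fold changes of −0.25, −0.22, −0.21, −0.18 and −0.05. SMG1 itself stood at 185.6 ± 43.3 and 183.2 ± 24.3 CPM, with ratios of −0.19, 0.19 and −0.01 in the 3 pairs. These are close copies, so their counts share an unknown number of reads and are not independent of each other.

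Copies of 2 other genes fell as well. CCT6P1, a copy of the chaperonin subunit gene CCT6A, had 442, 427 and 424 counts against 271, 267 and 276, and fell by 0.47 (SE 0.10, edgeR with the block, adjusted p = 0.0343). The call was lost without any 1 of the replicates (0.771, 0.206 and 0.0791 without replicates 1, 2 and 3), with DESeq2 (0.122), with limma-voom (0.181) and from the COLO320DM libraries alone (0.0797). Its relative CCT6P3, called only with the block and no count filter (0.0477), had 419, 366 and 371 against 266, 247 and 232, again without overlap, while CCT6A stood at 219.9 ± 18.8 and 221.9 ± 15.1 CPM. MRPS31P5, a copy of the mitochondrial ribosomal protein gene MRPS31, had 1416, 1351 and 1331 against 1062, 856 and 841, and fell by 0.38 (SE 0.08, adjusted p = 0.0257), and AL158066.1, which spans it, fell by 0.38. MRPS31P5 was not called without replicate 1, 2 or 3 (0.234, 0.360 and 0.177) or with limma-voom (0.0718), and neither was AL158066.1. MRPS31 itself had a block log2 fold change of −0.17 (adjusted p = 0.882) and overlapping groups. Among the 430 transcribed unprocessed pseudogenes tested, 271 were below 0 and the median was −0.06, and 35 lay lower in every HKDC1 library and 9 higher, where the shares over all genes were 4.22% and 3.52%. The protein-coding genes tested had a median of −0.0026.

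A further 2 noncoding genes fell with the block. AP000534.2, an unprocessed pseudogene on chromosome 22, had 577, 613 and 588 counts against 453, 249 and 325 (log2 fold change −0.62, SE 0.11, edgeR adjusted p = 0.00879). AC211476.5, a processed transcript on chromosome 7, had 522, 617 and 515 against 462, 326 and 256 (−0.49, SE 0.10, adjusted p = 0.0227). In both, the ratio of pair 1 was the nearest to 0. AP000534.2 had an adjusted p of 0.740 without replicate 2, 0.0732 without replicate 3 and 0.0718 with limma-voom. DESeq2 with the block gave AP000534.2 no adjusted p and so did not call it. AC211476.5 had 0.444 without replicate 2, 0.493 without replicate 3, 0.185 with limma-voom and 0.0870 from the COLO320DM libraries alone.

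The last 2 called genes, H4C14 and H4C15, encode histone H4, and their groups overlapped. H4C14 had 1539, 2272 and 2389 counts with the empty vector and 1194, 1592 and 1388 with HKDC1, and H4C15 had 1518, 2228 and 2368 against 1183, 1563 and 1374. Replicate 1 was lowest within each group, and only within pairs was the difference even, at −0.31, −0.28 and −0.46 for H4C14. Both fell by 0.35 with the block (SE 0.07, edgeR adjusted p = 0.0257 each). H4C14 was not called without replicate 1, 2 or 3 (0.167, 0.115 and 0.658) or with limma-voom (0.0718), nor was H4C15, which DESeq2 did not call either (0.0552). The counts of the 2 genes were almost the same in every library, and their coding sequences are so alike that reads cannot be assigned to either with certainty. Replication-dependent histone messages mostly lack a poly(A) tail, and these libraries were selected on poly(A), so their counts report the part that was captured. Of 26 such histone genes tested, 19 were below 0 and the median was −0.15, with these 2 the only ones called. The list's median ratio was −0.02, −0.06 and −0.11 in the 3 pairs, with 11, 10 and 7 of the 26 above 0. Over the alternatives its median log2 fold change ran from −0.32 to −7.0e-05.

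Lists of growth and stress pathways gave no called gene, although ATF3, a stress-induced transcription factor on the immediate early list that is named after its values were seen, passed with the block and no count filter (−0.35, adjusted p = 0.00615, edgeR). Of 35 genes of DNA replication, 27 were above 0 with a median of 0.06, and of 32 genes of mitosis, 25 were above 0 with a median of 0.03. Of 18 targets of p53, 14 were below 0 with a median of −0.09, and the median ratio was −0.03, −0.07 and −0.08 in the 3 pairs. Within single pairs the genes were split, with 9, 8 and 8 of the 18 above 0. Of 24 cholesterol synthesis genes, 20 were above 0 with a median of 0.08, which ran from −0.11 to 0.22 over the alternatives and was below 0 when replicate 1 of the empty vector, or replicate 2 or 3 of HKDC1, was left out. Of 23 genes of interferon signalling and nucleic acid sensing, which transfected DNA can set off, 10 were above 0 with a median of −0.07, and the ratio turned from −0.12 in pair 1 to 0.06 in pair 3. In the list of MYC and its targets, 23 of 34 were above 0 with a median of 0.05, and of 15 WNT targets 12 were above 0 with a median of 0.07. Among the metabolic lists, 17 of 22 citric acid cycle genes, 11 of 13 mitochondrially encoded messages and 9 of 14 genes of the pentose phosphate and hexosamine pathways were above 0, with medians of 0.04, 0.06 and 0.05. With 1 library left out, the median turned below 0 for the citric acid cycle (−0.0044), the mitochondrially encoded messages (−0.15), DNA replication (−0.05) and mitosis (−0.0074), and with a library or pair left out it turned above 0 for the interferon list (0.02). Of 12 NRF2 targets 9 were above 0, of 12 genes of the ATF4 response 7, of 14 hypoxia targets 8, of 18 immediate early genes 10, of 10 factors of nonsense-mediated decay 5 and of 15 G1 cyclins and inhibitors 6.

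**Figure D4:**
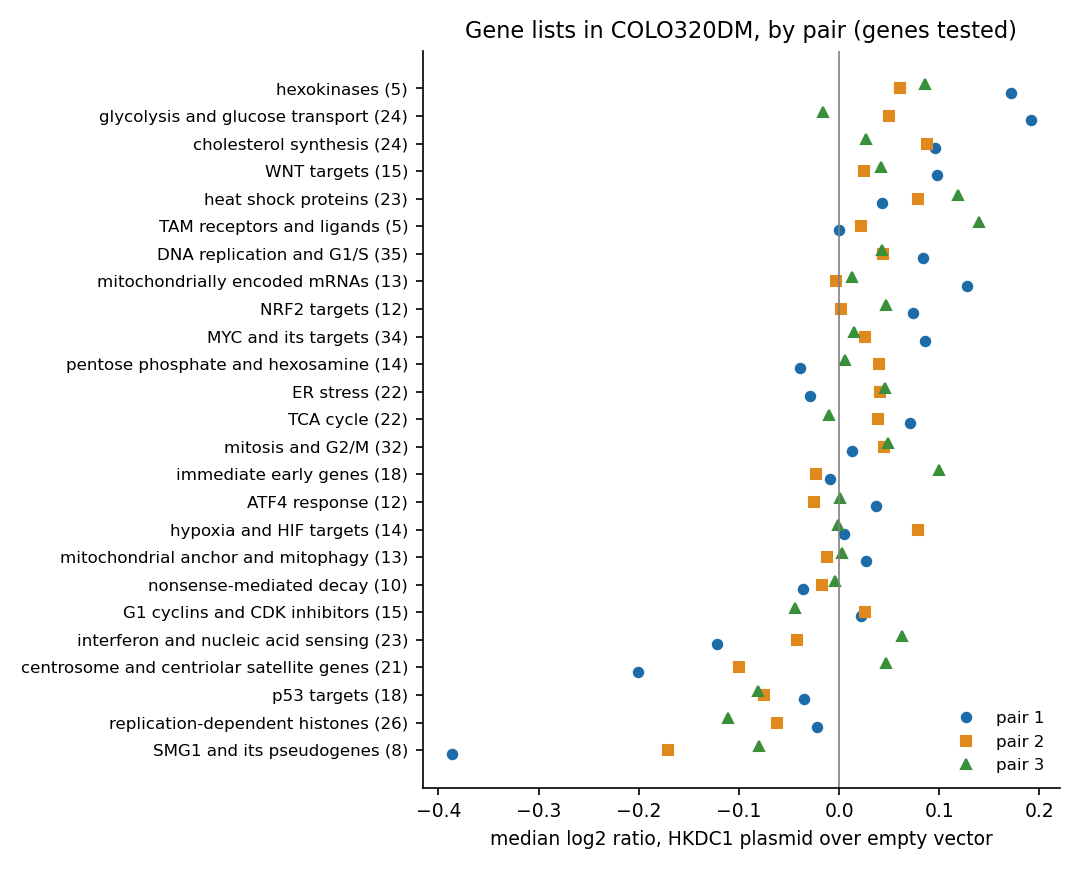
Median log2 ratio of HKDC1 plasmid to empty vector for each gene list with 5 or more genes tested, cell type markers left out, with the number of genes tested in brackets, in pairs 1 (blue circles), 2 (orange squares) and 3 (green triangles). SMG1 and its pseudogenes lie lowest in pairs 1 and 2, at −0.39 and −0.17, and at −0.08 in pair 3, and most other lists lie within 0.10 of 0 in pairs 2 and 3, with pair 1 often the farthest from 0. The SMG1 list holds 2 genes called lower in these libraries, and lists were chosen with earlier results of these data known. Its low place is therefore no separate support for those calls.

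Beyond the called genes, those with the smallest p without the block were mostly of very low count. On the higher side they were PLAT, HOXB2, NFKBID, LINC01770 and ABCC9. Only NFKBID, an inhibitor of NF-κB, had more than 20 counts in any COLO320DM library, with 34, 40 and 31 against 51, 45 and 41. On the lower side they were AC011330.2, ARID4A, DNAAF11, KRTAP5-AS1 and PLAC8L1. ARID4A, a chromatin protein that binds RB, had 1529, 1493 and 1500 counts against 1068, 1048 and 1020, with a block log2 fold change of −0.33 (SE 0.07, edgeR adjusted p = 0.0669). The groups did not overlap for ARID4A, but it passed the test only with the block and no count filter (adjusted p = 0.0137), as did AC011330.2 (0.0401).

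The response of COLO320DM was then set beside that of SW480, which has HKDC1 of its own. As a share of the library's total, SW480 had a median of 35.3 HKDC1 CPM with the empty vector and 12151 to 14231 CPM with the plasmid, so the lines differed in the starting level more than in the level reached. In SW480 itself edgeR called 3 genes without the block (0.0127%) and 180 with it (0.76%). The difference of the 2 lines' log2 fold changes was called for 2 genes without the block (0.00844%), HKDC1 and AL596223.2, and for 10 with it (0.0422%). None of the 16 other genes called in COLO320DM with the block was among the 10, and their lowest adjusted p for the difference was 0.110, for GH1 and AC127029.3. With the block, DNAJB1 rose in SW480 too, by 0.33 (SE 0.06, edgeR adjusted p = 0.00168), and AL671762.1 by 0.46 (SE 0.07, adjusted p = 0.000206). The differences between the lines were 0.02 (SE 0.08) for DNAJB1 and −0.08 (SE 0.09) for AL671762.1. Of the 14 genes lower in COLO320DM, 9 were below 0 in SW480 and 5 above. PIBF1 had −0.03 in SW480 (SE 0.07), and its difference of −0.31 (SE 0.09) had an adjusted p of 0.305, so a difference between the lines was not shown. GH1 had 152, 110 and 115 counts in SW480 with the empty vector and 111, 115 and 125 with HKDC1, a log2 fold change of 0.03 (SE 0.17).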

How the data were processed

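Poly(A)-selected RNA of the 12 libraries was sequenced by the authors, who deposited 1 table of raw counts per gene for 60623 Ensembl genes. Per the submitters' processing notes, HISAT2 2.1.0, limma and GRCh38 were used. The counting program, its strand setting and the annotation release are not given in the sources used here. Gene names came from the reference name table, which held 60295 of the identifiers, and from GENCODE 29. Groups and replicate numbers came from the sample titles.

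Counts were analysed with edgeR 4.0.16 in R 4.3.3: filterByExpr (minimum count 10, minimum total 15) left 23684 genes, TMM scaled the libraries, and a robust quasi-likelihood fit over all 12 libraries with 4 group means tested the HKDC1 plasmid against the empty vector in COLO320DM, with Benjamini-Hochberg adjustment over all genes and a threshold of 0.05. CPM values are TMM-scaled unless called a share of the library's total, and CPM per kilobase values use library totals and the deposited exon length. Pair ratios use CPM plus 0.5. A second fit added a block for each replicate number of a line. Correlations between the deviations of same-numbered libraries from their group means were 0.403, 0.134 and 0.119 for COLO320DM. For SW480 they were 0.723, 0.436 and 0.313. All exceeded 0.1, so the numbers were treated as pairing the libraries. That cutoff cannot tell pair 2 from pair 3, since replicates 2 and 3 correlated across numbers as well. In COLO320DM the values across numbers were 0.150 and 0.160, above the same-number 0.134 and 0.119. In SW480 they were 0.369 and 0.467, against 0.436 and 0.313. The correlations set replicate 1 apart but do not show how replicates 2 and 3 are matched. Replicates of a group differed beyond sampling noise (chi-squared per degree of freedom 3.18 or more).

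Alternatives were DESeq2 1.42.0 with its size factors, library totals in place of TMM, voom from limma 3.58.1, no count filter, the 6 COLO320DM libraries alone, and each library or pair left out. In simulated counts for this comparison, run over 23717 genes without the block and 23736 with it, 19% of 1.5-fold and 91% of 2-fold changes were recovered without the block and 98% and 100% with it, with 3 and 8 false calls. The 2 simulations had different settings. Counts for the fit without the block had a larger spread and no replicate effect. Those for the block had a smaller spread and an effect shared by same-numbered libraries. The rates therefore cannot be compared between the fits, and genes of low count were not among those changed. Within each simulation all genes had the same spread, and for the block the pairing by number was true by construction. The rates are therefore not the share of changes that the fits would recover in the real libraries.

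Named genes were the hexokinases, AL596223.2, every gene called with or without the block, the 5 of smallest p in each direction without the block beyond those, and from each gene list the called members and the 2 most abundant, or all members of lists of 8 genes or fewer. Members of lists given by counts alone are not named, and genes named after their values were seen are marked. Some members of the hexokinase list are not reported here. The comparison, gene lists and rule were chosen with earlier results of these data known.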

Additional observations from a re-analysis of the deposited data

Results flagged for a closer look

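The 4 genes named here differed between the lines in their response to the HKDC1 plasmid, by the test of the difference itself (edgeR, Benjamini-Hochberg over 23684 genes). For HKDC1, the log2 fold change in COLO320DM minus that in SW480 was 10.23, both with and without the replicate block, and for AL596223.2 the fitted value was 9.10 in both fits. The HKDC1 value rests on 2 counts in the COLO320DM controls, where the 95% counting interval of the ratio ran from 144770 to 4318250. Its size is therefore uncertain, although the 2 fits gave the same value. AL596223.2 had 0 counts in all 3 COLO320DM controls, so its fitted value depends on the fit and is no measured size. With a floor of 3 counts over that group, its log2 ratio of summed CPM was at least 15.44 in COLO320DM against 9.23 in SW480, a difference of at least 6.21. SW480 had HKDC1 of its own with the empty vector, at a median of 35.3 CPM, where COLO320DM had 2 counts in 3 libraries. HSPA6 had a difference of −2.06 with the block (SE 0.31, adjusted p = 0.000526): its counts went from 29, 57 and 44 to 73, 60 and 77 in COLO320DM and from 50, 21 and 34 to 226, 240 and 279 in SW480. EGR1, an immediate early transcription factor named after its values were seen, had a difference of 0.68 with the block (SE 0.13, adjusted p = 0.0278), from a log2 fold change of 0.35 in COLO320DM, where its counts of 70 to 198 in a library gave overlapping groups, and −0.34 in SW480. Without the block, neither the HSPA6 nor the EGR1 difference passed, with an adjusted p of 1.00 each, and the causes were not tested.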

How the results depend on the processing

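Without the replicate block, the count of called genes was 2 under every alternative run, each library left out included. With the replicate block it was 18, with 13 by DESeq2, 4 by limma-voom, 32 with no count filter, 18 from the 6 COLO320DM libraries alone, and 9, 18 and 7 without replicates 1, 2 and 3. The count of genes whose response differed between the lines was 2 without the block (2 or 3 under its alternatives), 10 with the block, 13 with the block by DESeq2, 67 with the block and no count filter, and 6, 32 and 6 with the block without replicates 1, 2 and 3. The causes were not tested. HKDC1 kept its direction and its call under all of them. Of 69 other single genes, 15 changed sign under at least 1 alternative, in 51 of 1301 gene and alternative combinations, and none of these 15 was called under any. Of 32 list medians, 17 changed sign under at least 1 alternative, 12 of them only with a library or pair left out. With library totals in place of TMM, the log2 fold changes were −0.0252 for TOMM20, −0.0131 for LDHB, −0.0205 for CCDC14, −0.0159 for CCT6A and −0.0178 for MPHOSPH8. MZT1 was 0.0032 by DESeq2, 0.0047 by DESeq2 with the block and 0.00056 from the COLO320DM libraries alone with the block, and SMG1 was 0.0048 and 0.00014 in the last 2 of these. With the block and without replicate 1, the values were 0.0892 for SMG1, 0.0155 for SMG1P7, 0.0033 for SYP, −0.0182 for CDX2 and 0.0170 for MZT1. Without replicate 2 they were −0.0013 for LDHB and −0.0168 for CCDC14, and without replicate 3 they were −0.0038 for TOMM20, −0.0373 for CCDC14, −0.0086 for CCT6A, 0.0169 for MZT1 and −0.0257 for MPHOSPH8. With 1 library or pair left out, the ranges that crossed 0 were −0.0878 to 0.10 for MZT1, −0.0126 to 0.0281 for TOMM20, −0.0137 to 0.0420 for LDHB, −0.0526 to 0.0941 for CCDC14, −0.0447 to 0.0850 for CCT6A, −0.0322 to 0.0638 for MPHOSPH8, −0.12 to 0.19 for SMG1, −0.0056 to 0.13 for GAPDH, −0.11 to 0.0562 for SMG1P7, −0.22 to 0.17 for SYP, −0.0182 to 0.0824 for CDX2, −0.0214 to 0.21 for HK1, −0.0259 to 0.18 for KRT8, −0.31 to 0.20 for CHGB and −0.0295 to 0.31 for HSP90AA1.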
